A study of Mus musculus and blank sample with 91 samples.

Results

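Feces of mice with experimental autoimmune encephalomyelitis (EAE) were compared with feces of mice given adjuvant alone on day 29 after immunization (29 dpi), a late stage of this mouse model of multiple sclerosis. Samples were chosen by their labels and comprise 6 mice with EAE and 5 with adjuvant alone (CFA), 11 of the 88 samples with counts. A further CFA sample of that day had a total of 0 counts and was left out. All mice were female C57BL/6. EAE mice received a peptide of myelin oligodendrocyte glycoprotein (MOG) emulsified in Complete Freund's Adjuvant (CFA) under the skin, and pertussis toxin into the abdominal cavity. CFA mice received the adjuvant dose only, as the labels read, so that MOG and pertussis toxin cannot be told apart in any difference between these groups. Naïve mice (6 at 29 dpi) were untreated, and each group also had 6 samples at -2 dpi. Cages held 2 or 3 mice and each cage was assigned to 1 treatment. The labels do not tie mice to cages, so cage and treatment cannot be told apart, and p-values over mice that share a cage may be too small.

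The mouse gut holds obligate anaerobes that ferment fiber and mucus, mainly Clostridia families such as Lachnospiraceae and Ruminococcaceae and the order Bacteroidales, together with Lactobacillaceae, which make lactic acid. Clostridia include many makers of butyrate, a short-chain fatty acid used by the colon's lining. Turicibacter of the Erysipelotrichaceae and Romboutsia of the Peptostreptococcaceae are spore-forming Firmicutes that are common in the small intestine of rodents. Akkermansia (Verrucomicrobiaceae) degrades mucin and is often carried by some cages of a colony and not by others. Mice of a cage eat each other's feces and so share their bacteria.

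Region V3–V4 of the bacterial 16S rRNA gene was sequenced, and the values are percents of a sample's read counts that the authors assigned to each family or genus. Totals of the 11 samples lay between 55597 and 97275 counts. In what follows "0" means 0 counts, which by counting error alone allows a level of up to 3 counts, at most 0.0054% of a total. Where a fold is given as "at least", the pooled counts of 1 group were set against 3 counts in all of the other. This floor and these folds do not cover the spread between mice or counts lost in earlier processing. The counting error of a single percent was at most 0.390 percentage points to either side (95% Wilson interval), far below the spread between mice, and such limits cover counting error only. Percents sum to a fixed total, so less of one genus and more of all others cannot be told apart. All 6 EAE mice had a clinical score above 0, from 2.25 to 3.75, and the score of all 5 CFA mice was 0. EAE mice weighed 0.963 g less than CFA mice (95% interval -2.59 to 0.581 g, exact permutation test, two-sided, p = 0.182). Without EAE mouse 595, the heaviest at 19.9 g, the difference was -1.30 g (exact permutation test, p = 0.0476).

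The EAE and CFA communities shared a high level of Turicibacter and a level of Lactobacillus below that of most naïve mice, and they differed in Lactobacillaceae, Romboutsia, Muribaculum and several less abundant genera. The mean Bray-Curtis dissimilarity of genus percents, which is 0 for identical and 1 for disjoint communities, was 0.459 between EAE and CFA mice, 0.393 among EAE mice and 0.311 among CFA mice. Treatment accounted for 32.8% of the variance (permutational analysis of variance, exact permutation test, p = 0.00216, the smallest that 6 against 5 mice allow, adjusted over 6 pairs of groups p = 0.00649). Both groups lay farther from naïve mice than from each other, with a mean of 0.714 for EAE and 0.624 for CFA mice (exact permutation tests, adjusted p = 0.00649 and 0.0130). At -2 dpi, EAE and CFA mice were at 0.346 with 18.6% of the variance (exact permutation test, p = 0.0541, adjusted p = 0.0649). CFA mice already differed from naïve mice then, at 0.348 with 21.0% of the variance (exact permutation test, p = 0.0281, adjusted p = 0.0422). Of the mean distance between EAE and CFA mice at 29 dpi, Prevotella made up 13.7%, Turicibacter 13.0%, Lactobacillus 8.02%, Barnesiella 6.98% and Muribaculum 5.57%.

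**Figure D1:**
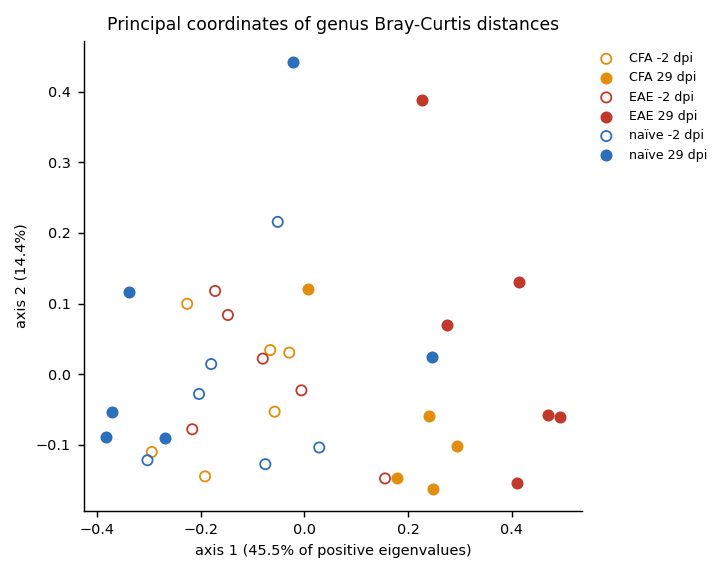
Principal coordinates of Bray-Curtis dissimilarities between genus percents, 1 point per mouse, for naïve, CFA and EAE mice at -2 dpi (open) and 29 dpi (filled). The first axis holds 45.5% and the second 14.4% of the positive eigenvalues, and EAE and most CFA mice of 29 dpi lie to the right of the -2 dpi samples.

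Within samples, the Shannon index of sequence variants (distinct sequences after removal of the primers) was 2.69 ± 0.484 (SD, n = 6) in EAE and 2.30 ± 0.225 (SD, n = 5) in CFA mice. The difference of 0.396 had a 95% interval from -0.115 to 0.934 (exact permutation test, p = 0.126). With ASVs as deposited, which keep primer variants apart, the difference was 0.0214 (exact permutation test, p = 0.961). EAE mice held 52.3 ± 17.1 (SD, n = 6) sequence variants and CFA mice 39.8 ± 6.46 (SD, n = 5), with a 95% interval of the difference from -5.96 to 30.7 (exact permutation test, p = 0.167). The lowest number, 25, was that of EAE mouse 589 and the highest, 74, that of EAE mouse 593, so the EAE group spanned the CFA range of 30 to 47 on both sides.

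**Figure D2:**
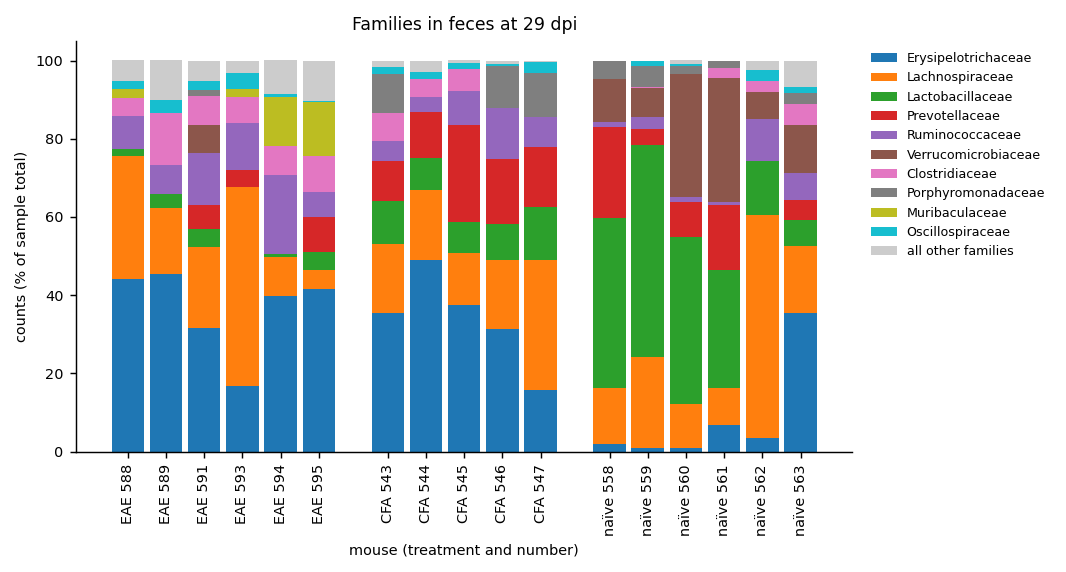
Percent of counts per family in each mouse at 29 dpi, for the 10 families with the highest mean and the sum of all others, stacked to 100%. Erysipelotrichaceae are high in EAE and CFA mice, Lactobacillaceae are lowest in EAE mice, and Verrucomicrobiaceae are seen in every naïve mouse, in no CFA mouse and in EAE mouse 591 alone.

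For each taxon, 3 comparisons at 29 dpi were set side by side: EAE against naïve, CFA against naïve, and EAE against CFA. The first 2 share the naïve mice and are therefore not independent of each other. A taxon that passed EAE against naïve was classed as EAE-specific if it also passed EAE against CFA in the same direction, and as shared if it passed CFA against naïve in the same direction. Passing means an adjusted p under 0.05 in the quasi-likelihood test of edgeR on counts. Among 23 families, 6 passed EAE against naïve (26.1%), 6 passed EAE against CFA (26.1%) and 2 passed CFA against naïve (8.70%). Among 65 genera these numbers were 6 (9.23%), 5 (7.69%) and 5 (7.69%). Lactobacillaceae (lower), Muribaculaceae and Peptostreptococcaceae (higher) were EAE-specific families by this rule, with Muribaculum and Romboutsia as EAE-specific genera. No taxon was classed as shared. The other EAE features, 3 families and 4 genera, passed against naïve mice only and were unresolved. This division turned on single mice: without naïve mouse 562, CFA against naïve also passed for Lactobacillaceae, Ruminococcaceae and Coriobacteriaceae (edgeR adjusted p = 0.0473 for each), which would then meet the rule for shared. Without EAE mouse 591, EAE against naïve passed for Verrucomicrobiaceae and Akkermansia (lower, adjusted p = 6.67e-05 and 3.5e-05), which passed CFA against naïve in the same direction with all mice (adjusted p = 0.000696 and 0.000456) and would be shared as well. Most of these calls rest on taxa with 0 counts in a whole group, and a taxon that missed the threshold is not shown to be alike in the groups compared. No family and no genus passed EAE against CFA by exact permutation tests of percents adjusted over all taxa, where 5 families and 6 genera had an unadjusted p under 0.05.

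Turicibacter, the most abundant genus of both groups, was high in EAE and CFA mice and did not separate them. It made up 16.8% of counts in the lowest EAE mouse, 40.6% at the median and 45.3% in the highest. In CFA mice it was at 35.4, 48.6, 37.4, 31.0 and 15.8% (mice 543 to 547 in order). The EAE range lay within the CFA range. The means were 36.5% ± 10.7 (SD, n = 6) and 33.6% ± 11.9 (SD, n = 5), a difference of 2.84 percentage points with a 95% interval from -12.7 to 18.0 (exact permutation test, p = 0.658). Naïve mice were at 0, 0, 0, 6.91, 3.36 and 35.2%, so that only naïve mouse 563 reached the level of the immunized mice. The naïve mean was 7.58% at 29 dpi and had been 16.5% at -2 dpi (6.24 to 28.8%). Differences from naïve mice at 29 dpi therefore include a naïve mean below its own baseline. Against naïve mice, Turicibacter was higher by 28.9 percentage points in EAE mice (95% interval 11.6 to 42.5, exact permutation test, p = 0.00649, adjusted p = 0.0790). In CFA mice it was higher by 26.1 percentage points (95% interval 8.00 to 42.0, exact permutation test, p = 0.0130, adjusted p = 0.158). The edgeR log2 fold changes were 2.11 ± 1.51 (SE, adjusted p = 0.471) and 2.24 ± 1.56 (SE, adjusted p = 0.404), so this feature was not among the calls. Its family Erysipelotrichaceae passed the percent test for EAE against naïve mice at 36.5% against 8.23% (exact permutation test, adjusted p = 0.0422), and CFA against naïve did not (33.8%, adjusted p = 0.253).

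Changes since -2 dpi were taken per mouse. CFA mice keep their numbers, but EAE mice are numbered differently in the labels at -2 and 29 dpi, and only the deposited table of samples, through its subject numbers, links them, so it is uncertain that the EAE samples linked come from the same animals. With this link, Turicibacter was higher than at -2 dpi in 6 of 6 EAE and 5 of 5 CFA mice. The mean change was 18.7 ± 12.2 percentage points (SD, n = 6) in EAE mice and 20.9 ± 10.3 (SD, n = 5) in CFA mice. The groups reached 29 dpi by different courses: CFA mice had 0 counts of Turicibacter in all 6 samples of 8 dpi, 0 to 3.30% on day 14 and 0 to 26.4% on day 19. EAE mice had 0 to 23.4%, then 12.7 to 25.6% and finally 8.38 to 43.9% on these 3 days. A single sequence variant, named Turicibacter sanguinis, held 99.9% of the genus counts in EAE and 99.95% in CFA mice at 29 dpi.

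**Figure D3:**
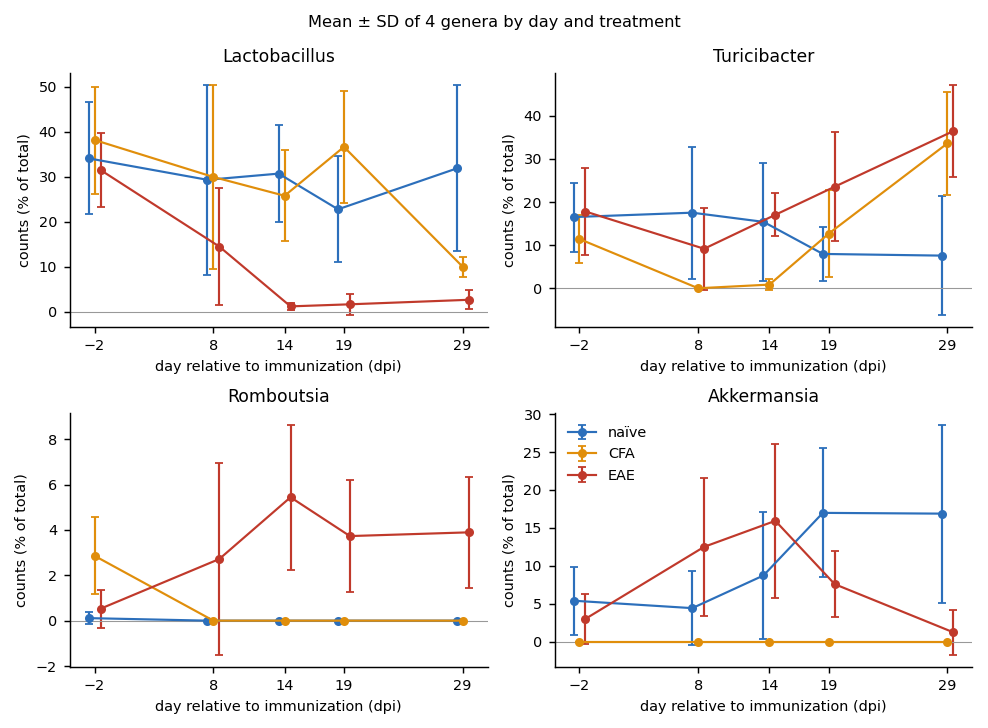
Mean ± SD of the percent of counts of Lactobacillus, Turicibacter, Romboutsia and Akkermansia by day, for naïve, CFA and EAE mice (n = 6 per group and day, except 5 for EAE on day 14 and 5 for CFA on day 29, points set side by side around each day). Lactobacillus is below 3% in EAE mice from 14 dpi on and falls to 9.97% in CFA mice at 29 dpi, Turicibacter of both groups meets at 29 dpi, Romboutsia is at 0 in CFA mice from 8 dpi on, and Akkermansia is at 0 in CFA mice at all 5 days.

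Lactobacillus, which ferments sugars to lactic acid, was lower in EAE mice than in CFA mice, and CFA mice had less than most naïve mice. EAE mice had 0% at the lowest (mouse 593), 2.71% at the median and 4.78% at the highest. CFA mice had 11, 8.08, 7.99, 9.37 and 13.4%. No EAE mouse reached the lowest CFA mouse. Naïve mice spread from 6.70% to 54.1% with a median of 36.5%, and 2 of the 6, at 6.70 and 13.8%, lay just outside either end of the CFA range. The mean was 2.61% ± 2.07 (SD, n = 6) in EAE and 9.97% ± 2.27 (SD, n = 5) in CFA mice, a difference of -7.36 percentage points (95% interval -10.3 to -4.20). The exact permutation test gave p = 0.00216, with adjusted p = 0.158 over genera and 0.0563 over families. In edgeR the log2 fold change of Lactobacillaceae was -2.21 ± 0.87 (SE, adjusted p = 0.0484), which passed, while Lactobacillus, with the same counts, had adjusted p = 0.102 among the larger number of genera. The family call was lost in 10 of 11 fits that left out 1 mouse, where adjusted p lay between 0.0369 and 0.0923. It was also lost with total counts in place of the scaling factors (adjusted p = 0.0638) and with only EAE and CFA mice of 29 dpi in the fit (adjusted p = 0.278).

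Against naïve mice, Lactobacillus differed by -29.2 percentage points in EAE mice (95% interval -46.0 to -9.87, exact permutation test, p = 0.00216, adjusted p = 0.0527) and passed in edgeR with a log2 fold change of -4.46 ± 1.05 (SE, adjusted p = 0.00295). CFA mice differed from naïve mice by -21.9 percentage points (95% interval -40.4 to -1.57, exact permutation test, p = 0.0368, adjusted p = 0.295), with a log2 fold change of -2.25 ± 1.02 (SE, edgeR adjusted p = 0.113). Lactobacillus was lower than at -2 dpi in 6 of 6 EAE mice and in 5 of 5 CFA mice, with mean changes of -28.9 and -27.9 percentage points from baselines of 31.5 and 38.1%. The difference between EAE and CFA mice in change since -2 dpi did not pass for Lactobacillaceae (log2 fold change -1.41 ± 1.17, SE, edgeR adjusted p = 0.894), although the family was classed as EAE-specific. Low values came late in CFA mice, whose 6 samples of 19 dpi lay between 19.5% and 52.3% when EAE mice were at 6.34% or less. Counted without Turicibacter, Lactobacillus was at 4.35% in EAE and 15.0% in CFA mice, and the 2 groups still did not overlap (exact permutation test, p = 0.00216). One sequence variant, named Lactobacillus johnsonii, held 99.9% of the counts of the genus in EAE and 99.4% in CFA mice.

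Of 19 families with counts in EAE or CFA mice at 29 dpi, 3 had values that did not overlap between the groups (15.8%), and of 56 genera it was 3 (5.36%). These were Lactobacillus, Prevotella and Peptococcus-rc4-4 with their families. Prevotella, of the order Bacteroidales, contains degraders of plant fiber. It was at 0% in 3 EAE mice and at 4.39, 5.99 and 8.92% in the others, against 10.1, 11.8, 24.8, 16.5 and 15.5% in CFA mice. Every CFA mouse was above every EAE mouse. The difference of means was -12.5 percentage points (95% interval -19.0 to -6.44, exact permutation test, p = 0.00433, adjusted p = 0.158), and the edgeR log2 fold change of -2.45 ± 1.57 (SE, adjusted p = 0.419) did not pass. Naïve mice overlapped with both groups, at 0% to 23.4% with a median of 7.09%. EAE mice differed from them by -6.49 points (95% interval -15.6 to 1.94, exact permutation test, p = 0.145). CFA mice differed by 6.04 points (95% interval -4.38 to 16.3, exact permutation test, p = 0.216). At -2 dpi the means were 14.3% in CFA and 11.4% in EAE mice, and by 29 dpi 5 of 6 EAE mice and 2 of 5 CFA mice had lower values than then.

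The names Prevotella and Barnesiella were given to primer variants of a single sequence. Of its 34 ASVs, 29 were named Prevotella and 5 Barnesiella, called Prevotella SV1 here. Barnesiella, listed under Porphyromonadaceae, was at 10.1, 10.8 and 11.3% in 3 CFA mice and at 0 in the other two, and at 1.44% in EAE mouse 591, 0.0036% in EAE mouse 595 and 0 in the other 4 EAE mice (exact permutation test, p = 0.0606, adjusted p = 0.442). Taken as 1 sequence, Prevotella SV1 was at 0, 0, 5.99, 4.39, 0 and 8.91% in EAE mice 588, 589, 591, 593, 594 and 595. It was at 20.1, 11.7, 24.5, 27.1 and 26.8% in CFA mice. The separation of the groups was thus wider by sequence than by name, with a difference of -18.8 percentage points (95% interval -25.8 to -11.7, exact permutation test, p = 0.00216, a quantity chosen after its values were seen). At -2 dpi the same sequence was at 15.4% ± 8.69 (SD, n = 6) in EAE and 15.8% ± 3.47 (SD, n = 6) in CFA mice (exact permutation test, p = 0.942). In all, 31 of 501 sequences, with 19.5% of the counts of these 11 mice, carried more than 1 genus name.

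**Figure D4:**
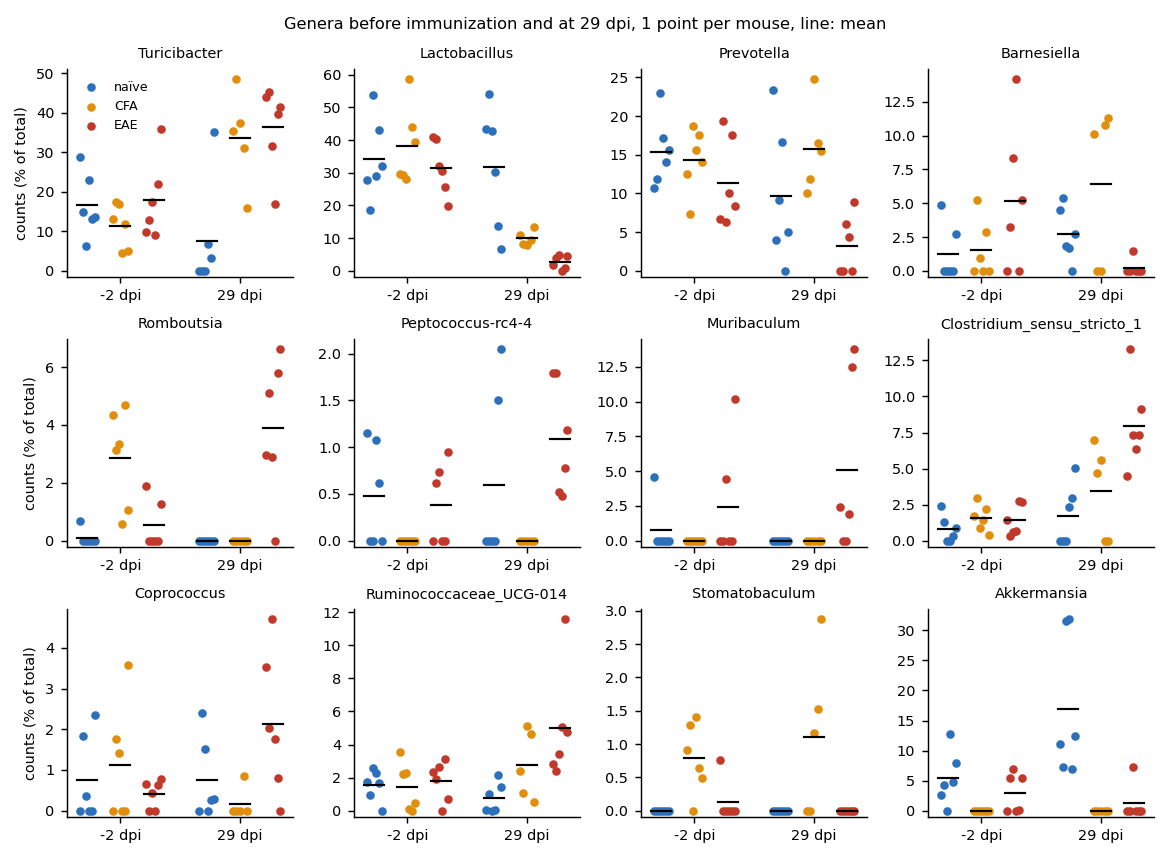
Percent of counts of 12 genera in each naïve, CFA and EAE mouse at -2 and 29 dpi, with a line at the group mean and an own linear scale per genus. EAE and CFA mice overlap for Turicibacter, every EAE mouse is below every CFA mouse for Lactobacillus and Prevotella at 29 dpi, and Romboutsia, Peptococcus-rc4-4 and Muribaculum are at 0 in all 5 CFA mice.

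Muribaculum is another genus of Bacteroidales, from a family that dominates the gut of many mice. It was at 2.43, 1.95, 12.5 and 13.8% in 4 EAE mice and at 0 in EAE mice 589 and 591, in all CFA and in all naïve mice. It passed in edgeR against CFA mice (adjusted p = 0.0340) and against naïve mice (adjusted p = 0.0193), with group counts at least 6820-fold and at least 9160-fold higher (against a floor of 3 counts over the group with none). The percents did not separate the groups (exact permutation tests, p = 0.152 and 0.0606). The call against CFA mice was lost without any single one of the 5 CFA mice (adjusted p 0.0701 to 0.0841). Before immunization it was already at 4.45 and 10.2% in 2 EAE mice and at 0 in all CFA mice (edgeR adjusted p = 0.0603), and a difference of changes since -2 dpi could not be estimated, because CFA mice had 0 counts on both days. The 1.44% named Barnesiella in EAE mouse 591 were counts of Muribaculum SV2, a sequence that other ASVs name Muribaculum. The genera named Prevotella, Barnesiella and Muribaculum together summed to 8.57% ± 8.16 (SD, n = 6) in EAE and 22.2% ± 6.44 (SD, n = 5) in CFA mice (difference -13.6 percentage points, 95% interval -23.4 to -3.45, exact permutation test, p = 0.0216).

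Romboutsia was the clearest EAE-specific genus by the rule, and it made up its family, the Peptostreptococcaceae, alone. It was at 2.96, 5.10, 2.88, 0, 5.79 and 6.63% in EAE mice 588 to 595 in order, and at 0 in all 5 CFA and all 6 naïve mice. EAE mouse 593, without Romboutsia, was also the mouse without Lactobacillus and the one with the lowest Turicibacter of its group. Pooled over the group and set against the floor of 3 counts, counts were at least 4810-fold higher than in CFA and at least 6460-fold higher than in naïve mice (edgeR adjusted p = 0.00586 and 0.00295). The calls against CFA and naïve mice held in each of the fits that left out 1 mouse. The difference of percents was 3.89 points (95% interval 1.44 to 6.27, exact permutation test, p = 0.0152, adjusted p = 0.277).

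At baseline the order of the groups was the opposite. At -2 dpi all 6 CFA mice held it, at 0.565% to 4.68%, against 2 of 6 EAE mice at 1.27 and 1.90% (exact permutation test, p = 0.0216, adjusted p = 0.527). CFA mice had 0 counts at 8, 14, 19 and 29 dpi, while EAE mice had it in 2, 5, 6 and 5 samples at these days. The difference of changes since -2 dpi passed for Romboutsia (edgeR adjusted p = 0.00847) and its family (adjusted p = 0.00661), and for 2 genera (3.08%) and 1 family (4.35%) in all. With each mouse, as so linked, as a block in the replicate block fit, Romboutsia passed (adjusted p = 0.000143) and its family did not (adjusted p = 0.0581). Romboutsia was also the single genus that passed CFA at 29 dpi against -2 dpi (lower, 1.54% of genera, adjusted p = 0.0184). It did not pass without any one of the 5 mice (adjusted p 0.0573 to 0.0666) or with the block (adjusted p = 0.0664), where Lactobacillus passed instead.

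Ruminiclostridium, whose members degrade cellulose, was the other genus that passed the difference of changes (edgeR adjusted p = 0.00847). It was at 0.199, 2.26 and 3.03% in 3 EAE mice and at 0 in the other 3, at 0 in all naïve mice and at 0 or 0.00342% in CFA mice. It passed against naïve mice (adjusted p = 0.0193, at least 1750-fold) and not against CFA mice (adjusted p = 0.0727). At -2 dpi it had been seen in 2 CFA mice and in no EAE mouse. With the replicate block, the difference of changes of Ruminiclostridium had adjusted p = 0.510. Of the genera, 3 passed EAE at 29 dpi against -2 dpi (4.62%), namely Lactobacillus (lower, adjusted p = 0.0217), Ruminiclostridium (higher, adjusted p = 0.0218) and Stomatobaculum (lower, adjusted p = 0.0218, seen in 1 of 6 EAE mice at -2 dpi). None of them passed with the block, where 5 genera had an unadjusted p under 0.05, while 9 genera passed in DESeq2 without it.

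Several genera passed both EAE against CFA and CFA against naïve in edgeR, without passing EAE against naïve. Peptococcus-rc4-4, an anaerobe of the Clostridia, was in every EAE mouse at 0.473% to 1.79% (median 0.978%) and in no CFA mouse. Counts over the group were at least 1290-fold higher in EAE mice (edgeR adjusted p = 0.0136), and percents differed by 1.09 points (95% interval 0.479 to 1.79, exact permutation test, p = 0.00649, adjusted p = 0.158). Naïve mice held it in 2 of 6 samples at 1.5 and 2.05%, and EAE did not pass against naïve mice (edgeR adjusted p = 0.979). CFA against naïve passed (lower, edgeR adjusted p = 0.0282), and did so in 7 of 11 fits without 1 mouse. By percents of its family Peptococcaceae, which had the same counts, CFA and naïve mice were not separated (exact permutation test, p = 0.455). CFA mice had none at -2, 8, 14 or 19 dpi either, and EAE against CFA passed before immunization as well (adjusted p = 0.0332, 3 of 6 EAE mice).

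Akkermansia separated EAE from CFA mice through a single EAE mouse, and the means of both groups were far below the naïve mean. It was at 7.33% in EAE mouse 591 and at 0 in the other 5 EAE mice and in all CFA mice, and at 6.90% to 31.9% with a median of 11.8% in naïve mice. EAE against CFA passed in edgeR (adjusted p = 0.00586), where the exact permutation test of percents gave p = 1.00, and without mouse 591 neither group had any. CFA mice had no Akkermansia at any of the 5 days, and EAE against CFA passed at -2 dpi (adjusted p = 0.00123, 4 of 6 EAE mice at up to 7.01%). Akkermansia and Peptococcus-rc4-4 were the 2 genera (3.08%), and Verrucomicrobiaceae and Peptococcaceae the 2 families (8.70%), that passed EAE against CFA at -2 dpi. EAE mice were at 15.9% ± 10.2 (SD, n = 5) Akkermansia at 14 dpi and at 1.22% ± 2.99 (SD, n = 6) at 29 dpi. The naïve mean was 16.9% at 29 dpi and had been 5.39% at -2 dpi (0 to 12.8%). Differences from naïve mice at 29 dpi therefore include a naïve mean above its own baseline. Naïve mice at 29 dpi were higher than EAE mice by 15.7 percentage points, which did not pass in edgeR (log2 fold change of EAE against naïve -4.89 ± 2.15, SE, adjusted p = 0.0992) but passed by percents at the rank of the family Verrucomicrobiaceae (exact permutation test, adjusted p = 0.0422). Without mouse 591 the edgeR test of Akkermansia passed too (adjusted p = 3.5e-05).

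Stomatobaculum, of the Lachnospiraceae, was seen at 29 dpi in CFA mice alone. By genus name it was at 1.16, 1.52 and 2.88% in mice 545 to 547 and at 0 in mice 543 and 544. Part of the CFA counts of its sequence carried another genus name, and the CFA mean was 1.74% by sequence against 1.11% by name. It passed as lower in EAE than in CFA mice (edgeR adjusted p = 0.00586, at least 1660-fold over the group, exact permutation test of percents, p = 0.0606) and as higher in CFA than in naïve mice (adjusted p = 0.00972). CFA mice held it at every day, from -2 dpi on (5 of 6 mice, 0.789% ± 0.525, SD, n = 6), while naïve mice had none at any day and EAE mice had it in 1 sample of -2 dpi. The other genera that passed CFA against naïve were Neglecta (higher, adjusted p = 0.0440, in 3 of 5 CFA mice) and Lachnoclostridium (lower, adjusted p = 0.0440, at 0 in CFA and in 2 of 6 EAE mice). Among sequence variants, 3 of 203 passed EAE against CFA (1.48%): Romboutsia SV1, Akkermansia SV1 (both higher) and Stomatobaculum SV1 (lower, a sequence that was also named Lachnospiraceae_NK4A136). At this rank 94 had an unadjusted p under 0.05, and 83 passed in DESeq2, while 0 to 2 passed in edgeR without 1 mouse. The sixth family past the threshold was Mogibacteriaceae/Anaerovoracaceae, at 0.143% to 0.395% in 4 EAE mice and 0 in CFA mice (adjusted p = 0.0484, called in 3 of 11 fits without 1 mouse). At 29 dpi 4 of 6 naïve mice held this family too, at up to 0.409%, and EAE did not pass against naïve mice (edgeR adjusted p = 0.882). At -2 dpi it had been in 3 of 6 CFA mice.

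The 4 Clostridia families that the paper names as generally expanded had a higher sum in EAE than in CFA mice. Clostridiaceae, Ruminococcaceae, Lachnospiraceae and Peptostreptococcaceae summed to 45.7% ± 13.8 (SD, n = 6) and 31.1% ± 5.69 (SD, n = 5), a difference of 14.5 percentage points (95% interval 0.883 to 29.8, exact permutation test, p = 0.0346), and at -2 dpi to 25.8 and 32% (exact permutation test, p = 0.275). In naïve mice at 29 dpi the sum was 27.9% ± 22.2 (SD, n = 6), from 12.3 to 70.7%. EAE mice were 17.8 points above naïve mice, with an interval that spanned 0 (95% interval -6.27 to 39.0, exact permutation test, p = 0.115). Clostridium_sensu_stricto_1, whose leading sequence was named Clostridium celatum/disporicum, was at 4.50% at the lowest, 7.32% at the median and 13.3% at the highest in EAE mice. In CFA mice it was at 6.96, 4.72, 5.57, 0 and 0%. The groups overlapped through CFA mice 543 to 545, and the difference was 4.53 points (95% interval 0.275 to 8.83, exact permutation test, p = 0.0346, adjusted p = 0.442, edgeR adjusted p = 1.00). It was higher than at -2 dpi in 6 of 6 EAE and 3 of 5 CFA mice. EAE mice were 6.25 points above naïve mice (95% interval 3.13 to 9.70, exact permutation test, p = 0.00433, adjusted p = 0.0790), and CFA mice 1.73 points (95% interval -1.98 to 5.52, exact permutation test, p = 0.329).

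Ruminococcaceae passed EAE against naïve mice (11.3% against 3.94%, log2 fold change 1.36 ± 0.47, SE, edgeR adjusted p = 0.0222) and were intermediate in CFA mice, at 7.69% (log2 fold change of CFA against naïve 0.85 ± 0.48, SE, adjusted p = 0.207). The call for EAE against naïve held in 8 of 12 fits without 1 mouse (adjusted p 0.00449 to 0.140). It also held with total counts and with no filter (edgeR adjusted p = 0.0219 and 0.0341). The call was lost in DESeq2 (log2 fold change 0.36, adjusted p = 0.647) and with only the groups compared in the fit (edgeR adjusted p = 0.243). EAE and CFA mice differed by 3.63 points with a 95% interval from -2.35 to 9.86 (exact permutation test, p = 0.225). Within the family, Ruminococcaceae_UCG-014 was at 2.42% to 11.6% (median 4.08%) in EAE mice, at 2.43, 1.10, 5.13, 4.62 and 0.511% in CFA mice and at 2.16% at most in naïve mice. Every EAE mouse was above every naïve mouse (exact permutation test, p = 0.00216, adjusted p = 0.0527), and 3 CFA mice were too (p = 0.0606 by exact permutation test). Ruminococcus, a fiber degrader, was likewise above naïve mice (0.247%) in both groups by mean. It was at 1.58% in EAE (exact permutation test, p = 0.00866, adjusted p = 0.0903) and 1.83% in CFA mice (exact permutation test, p = 0.0173, adjusted p = 0.158). The CFA mean rests on CFA mouse 546 at 5.93%, and without it the log2 fold change of EAE against CFA turned from -0.25 to 0.55 (edgeR adjusted p = 1.00 in both).

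Lachnospiraceae, the second most abundant family, did not separate the groups, at 22.4% ± 16.8 (SD, n = 6) in EAE, 20.0% ± 7.70 (SD, n = 5) in CFA and 22.1% ± 17.8 (SD, n = 6) in naïve mice. The EAE range from 4.63% to 50.9% enclosed the CFA range from 13.3% to 33.3% (difference 2.43 points, 95% interval -15.1 to 20.6, exact permutation test, p = 0.794). Genera within it went both ways. Coprococcus, a maker of butyrate, was at 0.805% to 4.71% in 5 EAE mice and 0 in EAE mouse 595, against 0 in 4 CFA mice and 0.853% in CFA mouse 546 (exact permutation test, p = 0.0433, adjusted p = 0.442). Its log2 fold change did not pass in edgeR (adjusted p = 0.453), and passed without CFA mouse 546 (adjusted p = 0.0250). Anaerostipes, another maker of butyrate, was at 2.30% to 5.91% in all 5 CFA mice and at 4.31 and 7.14% in 2 EAE mice, with 0 in the other 4 (95% interval of the difference -5.78 to 0.980, exact permutation test, p = 0.143). Each CFA mouse lay above every naïve mouse for this genus (exact permutation test, p = 0.00216, adjusted p = 0.0527). The naïve counts of this name belonged to a sequence that most of its ASVs name Coprococcus. At -2 dpi CFA mice were already at 4.27%, EAE mouse 550 at 3.92%, and the other EAE and all naïve mice at 0 (EAE against CFA, exact permutation test, p = 0.00649, adjusted p = 0.395). Roseburia, the third listed maker of butyrate in this family, spanned 0 to 11.7% in EAE and 0.978 to 8.49% in CFA mice (difference -0.909 points, 95% interval -5.81 to 4.36, exact permutation test, p = 0.721). Dorea (difference 0.855 points, 95% interval -0.262 to 2.07), Oscillibacter (0.398 points, -1.37 to 2.11) and Hungatella (0.299 points, -0.964 to 1.98) had intervals that spanned 0 as well.

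**Figure D5:**
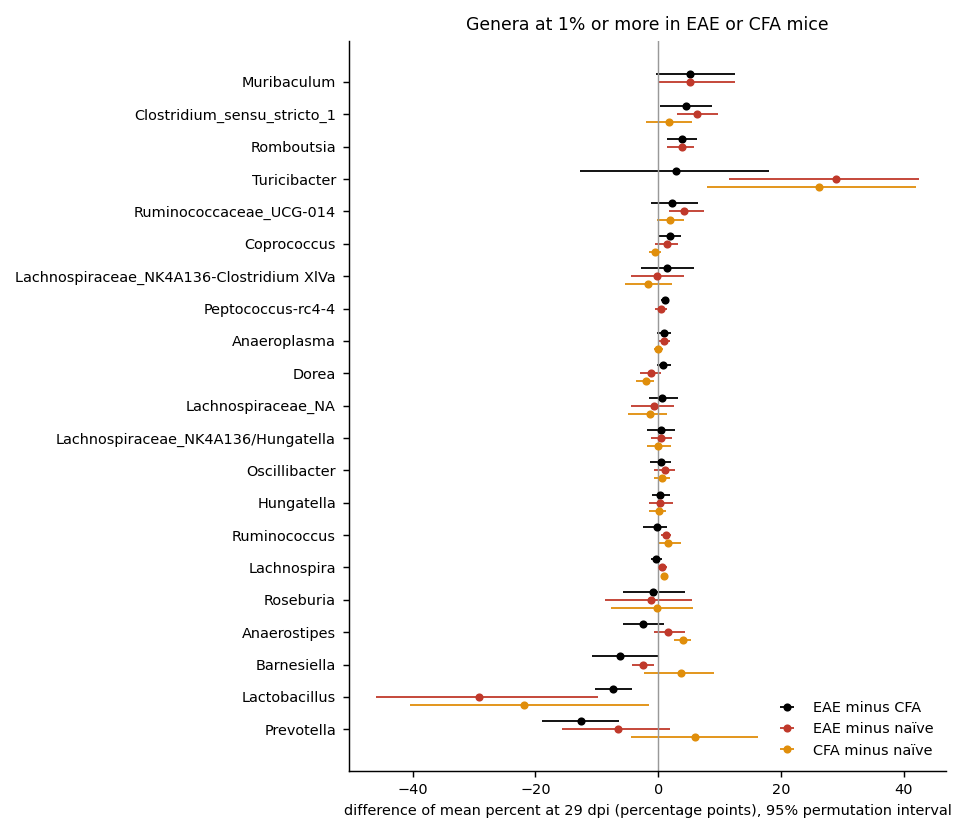
Difference of mean percent at 29 dpi, in percentage points with the 95% interval from inverted permutation tests, for genera at a mean of 1% or more in EAE or CFA mice and counts in at least 4 of the mice compared. Turicibacter is above 0 for EAE and CFA against naïve mice and spans 0 for EAE against CFA, whereas Lactobacillus is below 0 in all 3 comparisons and Prevotella in EAE against CFA.

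Grouped by what the genera are known for, the lists gave few calls, to be read against the 9.23% of all 65 genera that passed EAE against naïve and the 7.69% that passed each of the other comparisons at 29 dpi. Lactic acid producers (Lactobacillus and Enterococcus) summed to 2.61% in EAE and 9.97% in CFA mice, with no counts of Enterococcus in either, and 0 of 2 passed EAE against CFA. The 5 genera listed for Erysipelotrichaceae summed to 36.5 and 33.8%, with 0 of 4 tested past the threshold (median log2 fold change -0.06, against 0.00 over all 65 genera). Of 9 butyrate producers matched and tested, none passed in any of the 3 comparisons at 29 dpi (median log2 fold change of EAE against CFA -0.22), and they summed to 10.8% ± 7.83 (SD, n = 6) in EAE, 11.6% ± 2.55 (SD, n = 5) in CFA and 8.39% ± 10.0 (SD, n = 6) in naïve mice. The 5 fiber degraders summed to 3.46 to 11.2% in the 6 EAE mice and to 12.4 to 25.7% in the 5 CFA mice, without overlap, and Prevotella made up most of the CFA sum. Of the 5, 1 passed EAE against naïve (Ruminiclostridium, higher) and none EAE against CFA. Of the 3 Bacteroidales genera tested, Muribaculum alone passed EAE against CFA. Mollicutes, bacteria without a cell wall, were seen at 0.146% to 2.05% in all EAE mice and at 0.728 and 0.949% in 2 of 5 CFA mice, mostly as Anaeroplasma, with 0 of 3 genera past the threshold. Mycoplasma itself was at 0.304 and 0.146% in 2 EAE mice and at 0 in CFA mice (edgeR adjusted p of its family 0.0720).

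Marvinbryantia and Adlercreutzia, the latter with its family Coriobacteriaceae, passed EAE against naïve as lower (edgeR adjusted p = 0.0462, 0.0453 and 0.0222). All 3 were at 0 in every EAE and every CFA mouse and were seen in 4, 2 and 2 naïve mice, so their EAE and CFA values were the same although CFA against naïve did not pass (adjusted p = 0.0708, 0.0708 and 0.0700). At -2 dpi Marvinbryantia had been at 0 in every EAE, CFA and naïve mouse, and Adlercreutzia in every EAE mouse. Neither genus thus fell in EAE mice between these days. The calls for EAE against naïve held in 2, 4 and 12 of 12 fits without 1 mouse. Christensenellaceae, at 0.134% to 0.183% in 3 EAE mice and at 0 in CFA and naïve mice, passed against naïve mice (adjusted p = 0.0447) and not against CFA mice (adjusted p = 0.0608).

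By their values, whether or not they passed, the taxa described for late EAE mice fell into several sets. Turicibacter and Ruminococcus were above most naïve mice in each EAE and CFA mouse, and Lactobacillus was below most naïve mice in each of them. None of these genera had an adjusted p under 0.05 for CFA against naïve. Turicibacter and Ruminococcus had none for EAE against naïve either (exact permutation tests, adjusted p = 0.0790 and 0.0903), and were not EAE features by the rule. Ruminococcaceae_UCG-014 was above every naïve mouse in EAE mice and in 3 of 5 CFA mice. Akkermansia was at 0 in 5 of 6 EAE and all CFA mice and in every naïve mouse at 6.90% or more. CFA mice had had none at -2 dpi, when the naïve mean was 5.39%, against 16.9% at 29 dpi. EAE mice lay below CFA mice without overlap for Lactobacillus, where CFA mice were themselves low, and for Prevotella. The CFA mean of Prevotella, 15.7%, was above the naïve mean of 9.71%, but the 95% intervals of EAE and of CFA against naïve mice both spanned 0. Romboutsia and Muribaculum were seen at 29 dpi in EAE mice and in no CFA or naïve mouse. Of these, Romboutsia had been in all CFA mice at -2 dpi, and Muribaculum in 2 EAE mice and no CFA mouse, the same direction as at 29 dpi (edgeR adjusted p = 0.0603). The contrasts of Akkermansia and Peptococcus-rc4-4 between EAE and CFA mice were past the threshold before immunization too, and that of Stomatobaculum had the same direction then (adjusted p = 0.719).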

How the data were processed

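Fecal DNA of naïve, CFA and EAE mice was amplified at 16S region V3–V4 and sequenced by the authors, who inferred amplicon sequence variants (ASVs) with DADA2 and deposited raw counts per ASV, with names they had curated. Clinical scores and body weights in grams were deposited by the authors per mouse. Of 89 samples in the count table, 1 had a total of 0 and 88 were used. The 2 water controls were not analysed here. Counts were summed per family and genus, and primer sequences, present in 2274 of 2295 ASVs, were removed to merge primer variants into 501 sequences. Taxa and sequences seen in 3 or more samples entered the test of edgeR 4.0.16 (R 4.3.3; quasi-likelihood, 15 groups of treatment and day in 1 fit, TMMwsp factors from genera, Benjamini-Hochberg threshold 0.05). Percents, diversity, distances and weights were compared by two-sided exact permutation tests (462 arrangements for 6 against 5 mice), and intervals are those tests inverted, in Python 3.11.15 with numpy 2.4.6 and pandas 2.3.3. The tests were tried on simulated data with known answers.

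Members of the comparison, the taxon lists and the tests were chosen with earlier results of these data known. Named are families and genera that passed EAE against CFA, had a mean of 1% or more in a group of 29 dpi, were classed as EAE-specific or shared, or are named in the paper, and among sequences all that passed and the leading 3 of a named genus. CFA mice carry their numbers over days in the labels. EAE mice carry other numbers at 29 than at -2 dpi, and only the sample table links them by subject, so that it is uncertain whether they are the same animals. Deviations from group means of samples so matched at -2 and 29 dpi correlated at -0.279 to 0.302 over genera. Exact permutation p-values measure the spread between the mice compared. Those of the main edgeR fit rest on dispersions estimated over all 88 samples, with samples of a mouse on several days treated as independent. Alternatives were DESeq2 1.42.0 (poscounts), total counts, no filter, only the groups compared, unmerged ASVs, other distances, medians and group sums, leaving out each mouse, and mouse as a block. A single genus name per sequence and percents without Turicibacter were added after seeing the data.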

Additional observations from a re-analysis of the deposited data

Results flagged for a closer look

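Among 47 sets of values examined (23 genera, the Shannon index, the number of sequence variants and body weight in the EAE or CFA mice of 29 dpi), 8 had a mouse that lay far from the rest of its group by Dixon's 95% limit, where chance flags about 1 in 20 sets. EAE mouse 591 stood apart with Akkermansia at 7.33% and Barnesiella at 1.44%. EAE mouse 593 stood apart with Hungatella at 4.04% and unnamed Lachnospiraceae at 5.91%. Ruminococcaceae_UCG-014 was at 11.6% in EAE mouse 594, and EAE mouse 595 weighed 19.9 g. In CFA mice, mouse 546 stood apart with Coprococcus at 0.853% and Ruminococcus at 5.93%.

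EAE and CFA mice differed in their change from -2 to 29 dpi (difference of changes in edgeR) for Peptostreptococcaceae (adjusted p = 0.00661), Romboutsia (adjusted p = 0.00847) and Ruminiclostridium (adjusted p = 0.00847).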

How the results depend on the processing

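The share of Bray-Curtis variance between EAE and CFA mice was 33.0% with families, 35.6% with sequence variants, 24.1% with Aitchison distances and 37.8% without Turicibacter (exact permutation p of 0.00649 or less), and 29.1% to 41.0% without 1 mouse. The Shannon difference ranged from 0.242 to 0.508 and the weight difference from -1.30 (p = 0.0476, exact permutation test, without EAE mouse 595) to -0.583 g without 1 mouse.

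Counts of calls moved more. With DESeq2 they were, for families, 11 for EAE against CFA, 8 for CFA against naïve, 5 for the difference of changes and 4 for EAE against CFA at -2 dpi. For genera they were 16 for EAE against CFA, 17 for EAE against naïve, 20 for CFA against naïve, 13 for the difference of changes, 12 for EAE against CFA at -2 dpi, 9 for EAE and 12 for CFA since -2 dpi, and 83 for sequence variants. Exact permutation tests of percents gave 4 for families of EAE against naïve and 0 elsewhere, with an unadjusted p under 0.05 for 3 families (CFA against naïve), 2 (EAE against CFA at -2 dpi) and 5 (EAE against CFA), and for 10, 5 and 6 genera in the same order and 9 for EAE against naïve. With only the groups compared, 3 families passed EAE against naïve, 0 families and 0 genera EAE against CFA at -2 dpi (2 families and 3 genera unadjusted), 3 genera CFA since -2 dpi, 0 genera EAE since -2 dpi (5 unadjusted) and 24 sequence variants. With the mouse as a replicate block (paired days), the difference of changes gave 0 families (3 unadjusted) and 1 genus, and EAE since -2 dpi gave 0 genera (5 unadjusted). With 1 genus name per sequence, 9 genera passed CFA against naïve and 4 the difference of changes. All 5 genera that passed EAE against CFA also passed with DESeq2, total counts, no filter and 1 name per sequence, and 4 with only the groups compared, where Akkermansia, in 1 mouse, was not tested. The causes were not tested.

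Without 1 mouse, families called ranged from 2 to 6 for EAE against CFA, 4 to 6 for EAE against naïve, 2 to 5 for CFA against naïve, 1 to 1 for the difference of changes and 2 to 2 at -2 dpi. Genera called ranged from 4 to 5, 4 to 7, 2 to 5, 2 to 3 and 1 to 5 in the same order, with 2 to 4 for EAE and 0 to 0 for CFA since -2 dpi, and sequence variants from 0 to 2. EAE against CFA lost Akkermansia without EAE mouse 591 and Muribaculum without any CFA mouse, and EAE against naïve gained Akkermansia without EAE mouse 591. EAE against CFA gained Barnesiella without EAE mouse 591 (log2 fold change -12.72, adjusted p = 0.0468, EAE counts then near 0) and Coprococcus without CFA mouse 546.

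Genera that did not pass changed sign as follows in their log2 fold change of EAE against CFA. With DESeq2, Hungatella was at -0.57, Lachnospiraceae_NA at -0.03, Lachnospiraceae_NK4A136-Clostridium XlVa at -0.39 and Lachnospiraceae_NK4A136/Hungatella at -0.51. With 1 name per sequence Oscillibacter was at 0.08 and Turicibacter at 0.26, and with total counts at 0.30 and 0.12.
Without 1 mouse, the range was -7.54 to 6.21 for Anaerotignum-Clostridium XlVb, -0.34 to 0.28 for Hungatella, -0.07 to 1.25 for Lachnospiraceae_NA, -0.56 to 0.65 for Lachnospiraceae_NK4A136/Hungatella, -0.48 to 0.02 for Oscillibacter, -0.59 to 0.55 for Ruminococcus, -0.32 to 0.27 for Turicibacter.

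With 5 or 6 mice a group and a median edgeR dispersion of 11 for genera, the limits of the number of mice and of depth on the edgeR tests were not separated. By counting error alone, a count of 0 allows a level of up to 3 counts of a mouse's total.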
